A study of Mus musculus with 2 samples.

Results

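The regions described are the bidirectional promoters of protein-coding gene pairs: 2 genes on opposite strands that point away from each other, with their 5' ends at most 1 kb apart and gene bodies that do not overlap. They were taken from the GENCODE annotation of the mouse genome (build mm10), chromosomes 1 to 19, and each region ran from 500 bp beyond one 5' end to 500 bp beyond the other. The annotation held 734 such pairs in 714 separate loci, made of 1448 genes, which is 6.96% of the 20807 protein-coding genes of these chromosomes. A set of 16684 single promoters was measured beside them: genes in no pair, with no 5' end of another protein-coding gene within 5 kb, over regions of the same lengths. A pair region holds the 5' ends of 2 genes and a single region that of 1. Open shares, motif shares, strongest values and footprint counts are per region. The other 2675 genes were in neither class. A 5' end here is that of the gene, so a gene with several annotated starts was placed at the outermost one.

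The data were DNase-seq, which maps the DNA that the nuclease DNase I can cut, from 2 libraries whose labels give the tissue as layer of hippocampus. Both came from male B6CASTF1/J mice, a hybrid of the laboratory strain C57BL/6J and the wild-derived strain CAST/EiJ, aged 25 days, and they form 1 group with no treatment and no second genotype. The labels number them biological replicates 1 and 2 with separate biosamples but 1 shared donor entry, so the spread between them may be technical. The tissue is a mixture of cell types, and a lower value in it cannot be told apart from fewer cells in which the promoter is open. All coordinates and sequences are those of the C57BL/6J reference, while a part of the reads carries CAST/EiJ alleles.

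At a bidirectional promoter, one stretch of DNA starts transcription toward both sides, and the short interval between the 5' ends is upstream sequence for both genes. Such promoters are common in mammalian genomes, lie mostly in CpG islands and often lack a TATA box, and many of their genes serve needs of every cell, such as DNA repair, mitochondrial function and protein synthesis. Open promoters are free of a nucleosome at the start site, which DNase-seq sees as a peak of cuts, and a bound protein can leave a short footprint of shielded bases inside the peak.

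The 5' ends of a pair lay 1 to 987 bp apart, with a median of 128 bp, and 602 of the 734 pairs (82.0%) had them within 300 bp. The stretch between the 5' ends of 8 pairs is printed here, because it holds a motif whose middle base lay in a footprint in both libraries. For each motif shown, the pair with the highest peak value among such pairs was taken. Sequences are from the GRCm38.p6 reference, plus strand, 5′ to 3′, with the motif in capitals on whichever strand it lay. A stretch under 60 bp was widened to that length, and of one over 300 bp only the part around the motif is shown. The marked site of Tas1r1/Nol9 runs across the 5' end of Nol9, and the printed part ends with the site.
Cct5/Fam173b (NRF1, chr15:31601798-31601857, plus strand): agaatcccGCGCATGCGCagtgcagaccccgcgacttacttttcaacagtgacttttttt
Dtl/Ints7 (CRE, chr1:191575544-191575636, plus strand): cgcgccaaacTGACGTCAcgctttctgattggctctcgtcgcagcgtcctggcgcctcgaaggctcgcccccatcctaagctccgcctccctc
Rita1/Ddx54 (SP/KLF, chr5:120612589-120612739, plus strand): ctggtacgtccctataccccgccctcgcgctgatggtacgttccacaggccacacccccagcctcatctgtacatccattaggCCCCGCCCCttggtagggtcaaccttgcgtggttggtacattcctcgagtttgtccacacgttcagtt
Tepsin/Ndufaf8 (NF-Y, chr11:120098731-120098928, plus strand): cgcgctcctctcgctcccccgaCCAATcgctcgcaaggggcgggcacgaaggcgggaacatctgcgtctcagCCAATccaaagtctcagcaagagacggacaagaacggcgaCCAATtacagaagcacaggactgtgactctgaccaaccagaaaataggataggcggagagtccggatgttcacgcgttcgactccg
Thap2/Zfc3h1 (YY1, chr10:115384476-115384604, plus strand): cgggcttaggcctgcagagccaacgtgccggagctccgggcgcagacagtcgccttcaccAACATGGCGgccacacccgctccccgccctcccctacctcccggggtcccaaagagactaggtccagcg
Mrps12/Sars2 (E2F, chr7:28741820-28741992, plus strand): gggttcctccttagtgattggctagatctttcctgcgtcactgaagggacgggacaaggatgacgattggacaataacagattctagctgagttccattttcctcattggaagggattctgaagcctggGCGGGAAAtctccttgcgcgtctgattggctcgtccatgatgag
Tas1r1/Nol9 (Kaiso-type, chr4:152039255-152039324, plus strand): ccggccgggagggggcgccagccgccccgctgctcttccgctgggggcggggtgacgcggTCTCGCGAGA
Hist1h2ak/Hist1h2bn (TATA, chr13:21753827-21754123, plus strand): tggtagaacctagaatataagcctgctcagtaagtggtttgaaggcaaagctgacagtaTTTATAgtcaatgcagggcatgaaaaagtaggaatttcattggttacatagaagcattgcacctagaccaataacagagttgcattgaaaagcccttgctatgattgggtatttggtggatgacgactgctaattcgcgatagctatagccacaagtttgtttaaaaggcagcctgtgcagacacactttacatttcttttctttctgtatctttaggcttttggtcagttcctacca
The NRF1 match of Cct5/Fam173b lay in footprints of 28 bp in replicate 1 and 27 bp in replicate 2. The CRE match of Dtl/Ints7 began 10 bp from the 5' end of Dtl, in footprints of 27 and 10 bp. In replicate 1 the only peak of that region was 80 bp wide and did not cover the footprint. Tepsin/Ndufaf8 held 3 CCAAT boxes in 198 bp, and the middle one lay in footprints of 43 and 42 bp. No ZNF143-type match between the 5' ends of a pair lay in a footprint in both libraries.

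Replicate 1 had 93545 peaks and 223251 footprints and replicate 2 had 79144 peaks and 170016 footprints. The number of cuts behind them is unknown, since the scaling of the authors' peak values is not given. Promoters of the neuronal genes Rbfox3, Snap25, Syt1 and Map2 had peaks in both libraries, as did Prox1 and Slc17a7 of excitatory hippocampal neurons, Gfap and Slc1a3 of astrocytes and Mbp of oligodendrocytes. Those of Neurod2, Gad2 and Csf1r had a peak in replicate 1 only. The promoters of Alb (liver), Ckm and Myh6 (muscle), Cldn5 and Pecam1 (endothelium), and Cx3cr1 and Trem2 (microglia) had none. Replicate 2 had a peak of value 0.606 at the promoter of Xist, a gene active in female cells, which goes against its label as male. Replicate 1 had none there, and 40 and 39 peaks of replicates 1 and 2 lay on the Y chromosome. The results below use autosomes and are given for each library.

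Nearly every bidirectional promoter was open in this tissue. A peak overlapped 694 of the 734 pair regions in replicate 1 and 694 in replicate 2 (94.6% in each, exact 95% interval 92.7 to 96.1%). Single promoters had a peak in 55.6% (54.9 to 56.4%) in replicate 1 and in 54.4% (53.6 to 55.1%) in replicate 2. In both libraries at once, 693 pairs (94.4%) and 53.0% of single promoters were open. The single promoters include those of 1085 olfactory receptor genes, of which 4 (0.369%) were open in both, and no pair holds such a gene. The background over the 5' ends of all 20807 protein-coding genes, 500 bp to each side, was 59.7% in replicate 1, 58.5% in replicate 2 and 57.1% in both. Intervals cover counting error only. With 2 libraries an exact two-sided permutation of signs reaches a p of 0.5 at best, so differences are given by size and by library without a p-value.

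The classes differ in base composition, and part of the gap goes with it. Regions were called CpG-rich when the ratio of observed to expected CpG was at least 0.6 and the GC content at least 50%, the traits of a CpG island. By this measure 616 pairs (83.9%) and 6257 single promoters (37.5%) were CpG-rich. Among CpG-rich regions, 99% of pairs (97.9 to 99.6%) and 93.7% of single promoters (93.1 to 94.3%) were open in both libraries. Their composition was close, with a median CpG ratio of 0.79 in pairs and 0.769 in single promoters. Among the remaining regions, 83 of 118 pairs (70.3%, 61.2 to 78.4%) and 28.5% of single promoters (27.6 to 29.4%) were open in both. The intervals of pairs and single promoters were apart in both strata. Within the remaining regions the composition of pairs and single promoters was not compared.

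Open pairs also carried higher peak values. The authors' signal of the strongest peak in a region had a median of 2.85 over open pairs and 2.04 over open single promoters in replicate 1, and of 2.68 and 1.96 in replicate 2. The ratio of pairs to single promoters was 1.38 ± 0.022 (mean ± SD, n = 2 libraries). Over CpG-rich regions it was 1.22 ± 0.028, with medians of 2.91 in pairs and 2.35 in single promoters in replicate 1, and of 2.75 and 2.29 in replicate 2. CpG-rich single promoters with a diverging noncoding gene within 1 kb upstream lay between, with medians of 2.61 in replicate 1 and 2.58 in replicate 2. The widths of the strongest peaks did not set all pairs and all single promoters apart: the median was 400 bp in both in replicate 1 and 340 bp in both in replicate 2. A pair region held on average 8.46 footprints in replicate 1 and 6.79 in replicate 2, against 6.23 and 5.10 in single promoters, each over open regions. In CpG-rich regions the ratio of these means was 1.20 ± 0.0072, with 8.73 footprints in pairs and 7.26 in single promoters in replicate 1, and 7.02 and 5.89 in replicate 2. The CpG-rich single promoters with a diverging noncoding gene again lay between, with means of 7.9 in replicate 1 and 6.49 in replicate 2.

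**Figure D1:**
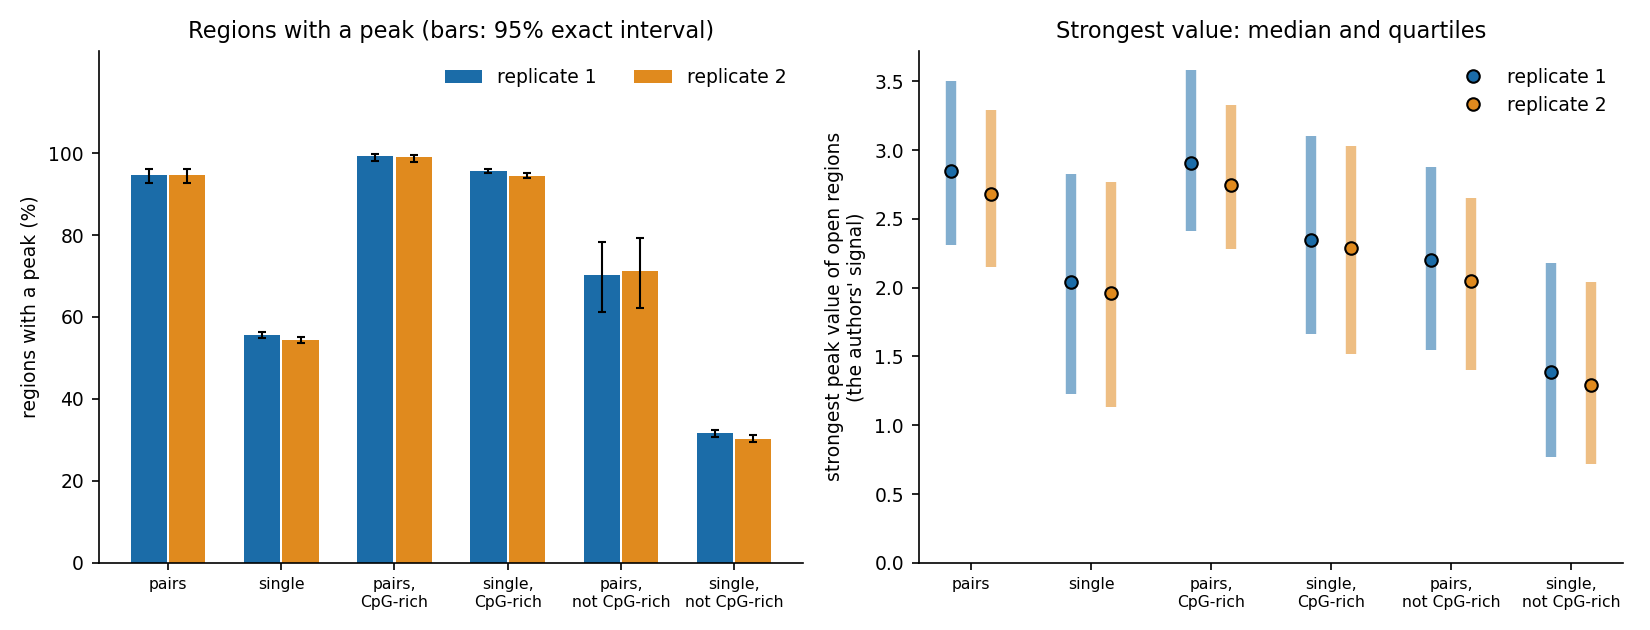
Left: percent of regions with a peak in each library (blue, replicate 1; orange, replicate 2) for pairs and single promoters, over all regions and split by CpG content, with exact 95% intervals. Right: the strongest peak value of open regions, points at the median and bars from the first to the third quartile. In each panel pairs stand above single promoters of the same CpG class. Among regions that were not CpG-rich, for example, 70.3% and 31.6% were open in replicate 1.

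The libraries ranked the pairs much alike. Over the 693 pairs open in both, the strongest peak values had a Spearman rho of 0.841 and a Pearson r of 0.888 on the log2 scale. These are descriptions over pairs that share both libraries. In 665 of the 693 (96.0%) the values of the libraries were within 1.5-fold of each other, and 94.0% of single promoters open in both met the same limit. Only 2 pairs had a peak in 1 library alone, both of low value. Tradd/Fbxl8, with the adaptor of the TNF receptor, had a peak of 0.798 in replicate 1 only, and Lrrc74b/P2rx6, with an ATP-gated channel, one of 0.709 in replicate 2 only.

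**Figure D2:**
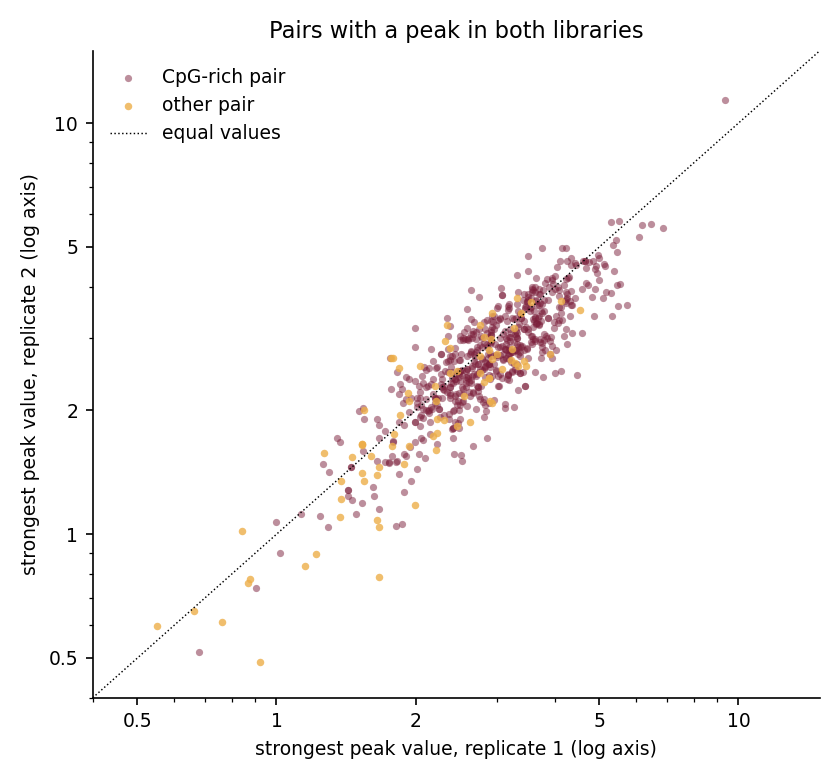
Strongest peak value of each of the 693 pairs open in both libraries, replicate 1 on the horizontal and replicate 2 on the vertical axis, both logarithmic; dark points are CpG-rich pairs, yellow points other pairs, and the dotted line marks equal values. Points follow the line over the whole range, and the highest point, Hjurp/Trpm8 at 9.36 and 11.4, stands alone.

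A single peak covered both 5' ends in 411 of the 694 open pairs in replicate 1 (59.2%, 55.5 to 62.9%) and in 441 of 694 in replicate 2 (63.5%, 59.8 to 67.1%). The share fell with distance. Where the 5' ends were 1 to 50 bp apart it was 79.0% in replicate 1 and 90.2% in replicate 2, and at 101 to 200 bp it was 62.6% and 69.0%. At 301 to 500 bp it was 29.5% and 21.3%, and at 501 to 1000 bp 5 of 59 and 2 of 60 open pairs remained (8.47% and 3.33%). Peaks had a median width of 400 and 340 bp, which is less than the longest intervals.

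In wider pairs the peaks more often covered 1 of the 5' ends alone. Both 5' ends lay in peaks, the same or separate ones, in 66.9% of open pairs in replicate 1 and 71.0% in replicate 2. In 22.0% and 22.3% exactly 1 end did, and in 11.1% and 6.63% the peaks lay between or beside the ends. At 1 to 50 bp, 1 end alone was covered in 9 of 124 open pairs in replicate 1 and 5 of 123 in replicate 2, and at 501 to 1000 bp in 32 of 59 and 30 of 60. The mean number of peaks per open pair was 1.23 and 1.28 in the closest pairs and 2.08 and 2.23 in the widest, over regions that are longer by the same distance.

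**Figure D3:**
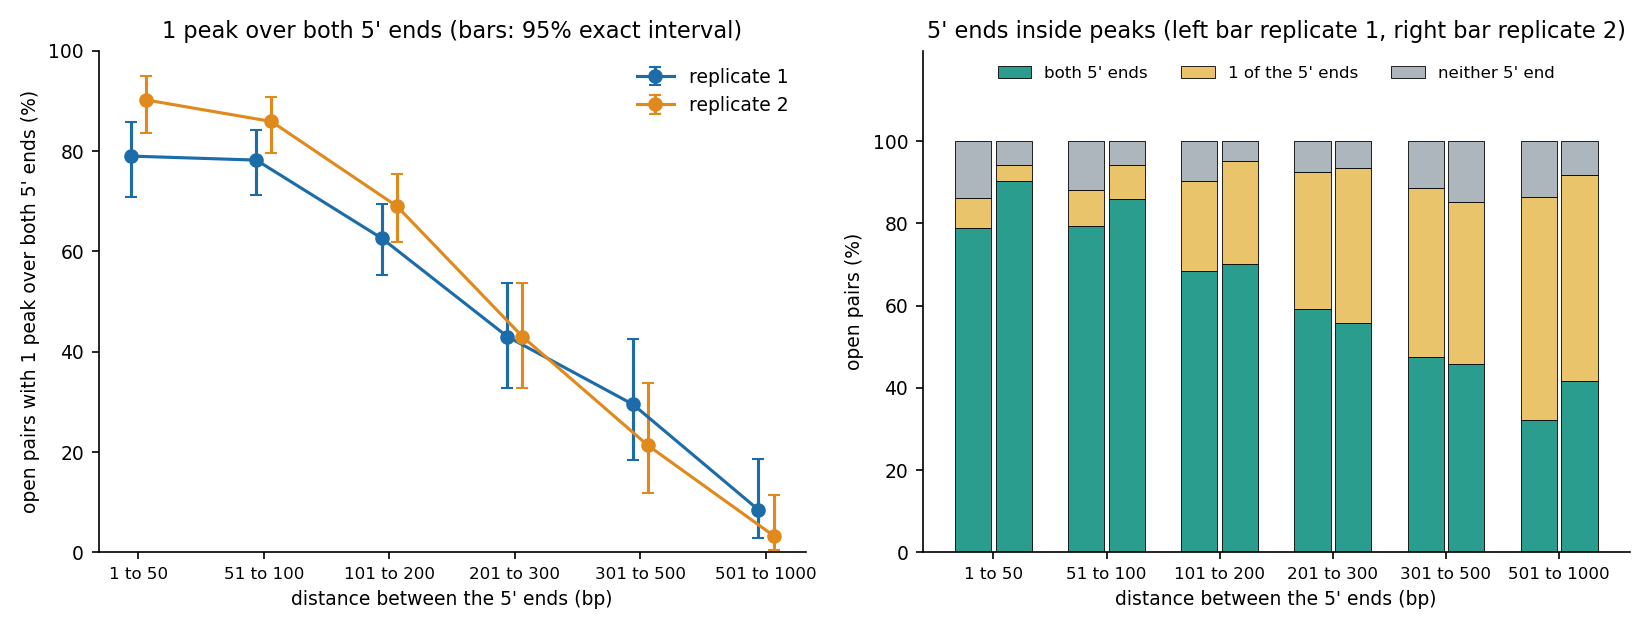
Left: percent of open pairs with 1 peak over both 5' ends, by distance between the ends, in replicate 1 (blue) and replicate 2 (orange) with exact 95% intervals; the share is 79.0% and 90.2% in the closest pairs and 8.47% and 3.33% in the widest. Right: percent of open pairs with both, 1 or neither 5' end inside a peak, left bar replicate 1 and right bar replicate 2.

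The base with the lowest FDR of a region, the authors' most certain point of high cutting, lay between the 5' ends in 41.8% of pairs in replicate 1 and 52.7% in replicate 2. That stretch makes up 15.7% and 15.8% of the same regions. The rest of these bases were spread over both genes, with 28.8% on the side of the minus-strand gene and 29.4% on that of the plus-strand gene in replicate 1, and 25.4% and 21.8% in replicate 2. In single promoters the lowest FDR lay in an upstream stretch of the same lengths in 27.4% in replicate 1 and 33.7% in replicate 2, and in CpG-rich ones in 31.0% and 38.3%. Over the whole upstream side it lay there in 50.4% and 56.5% of CpG-rich single promoters.

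Seen from each 5' end, open chromatin in pairs reached farther upstream and less far into the gene than in single promoters. The 5' ends of CpG-rich pairs were compared with those of CpG-rich single promoters by the percent that had an FDR under 0.05 at a given base. At 400 bp upstream it was 86.3% of pair ends and 50.8% of single ends in replicate 1, and 81.8% and 45.2% in replicate 2. At 600 bp downstream, inside the gene, it was 36.4% of pair ends and 62.6% of single ends in replicate 1, and 30.4% and 54.0% in replicate 2. At the 5' end itself, 98.0% of pair ends and 91.5% of single ends were open in replicate 1, and 97.8% and 90% in replicate 2.

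The total per 5' end was similar, and in pairs fewer of the open bases lay downstream, inside the gene. Summed over 2000 bp on each side, a pair end had a mean of 1326 open bases and a single end 1288 in replicate 1, and 1237 and 1156 in replicate 2. Of these, 43.9% lay downstream in pairs and 62.4% in single promoters in replicate 1, and 43.5% and 61.6% in replicate 2. The upstream flank of one gene of a pair is the interval and then the body of its partner, so a pair is counted from both sides. This fixes in advance that the upstream mean of pairs is at least about the downstream mean, and that it grows with an open interval. The downstream means are not fixed in this way. In replicate 1 they were 582 open bases in CpG-rich pairs and 804 in CpG-rich single promoters. In replicate 2 they were 538 and 712. Upstream, the profile grew wider with distance between the ends: at 1 to 100 bp the mean was 589 open upstream bases in replicate 1 and 539 in replicate 2, and at 301 to 1000 bp it was 881 and 846. Downstream it changed little, with 537 and 487 bases in the closest pairs and 502 and 473 in the widest.

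**Figure D4:**
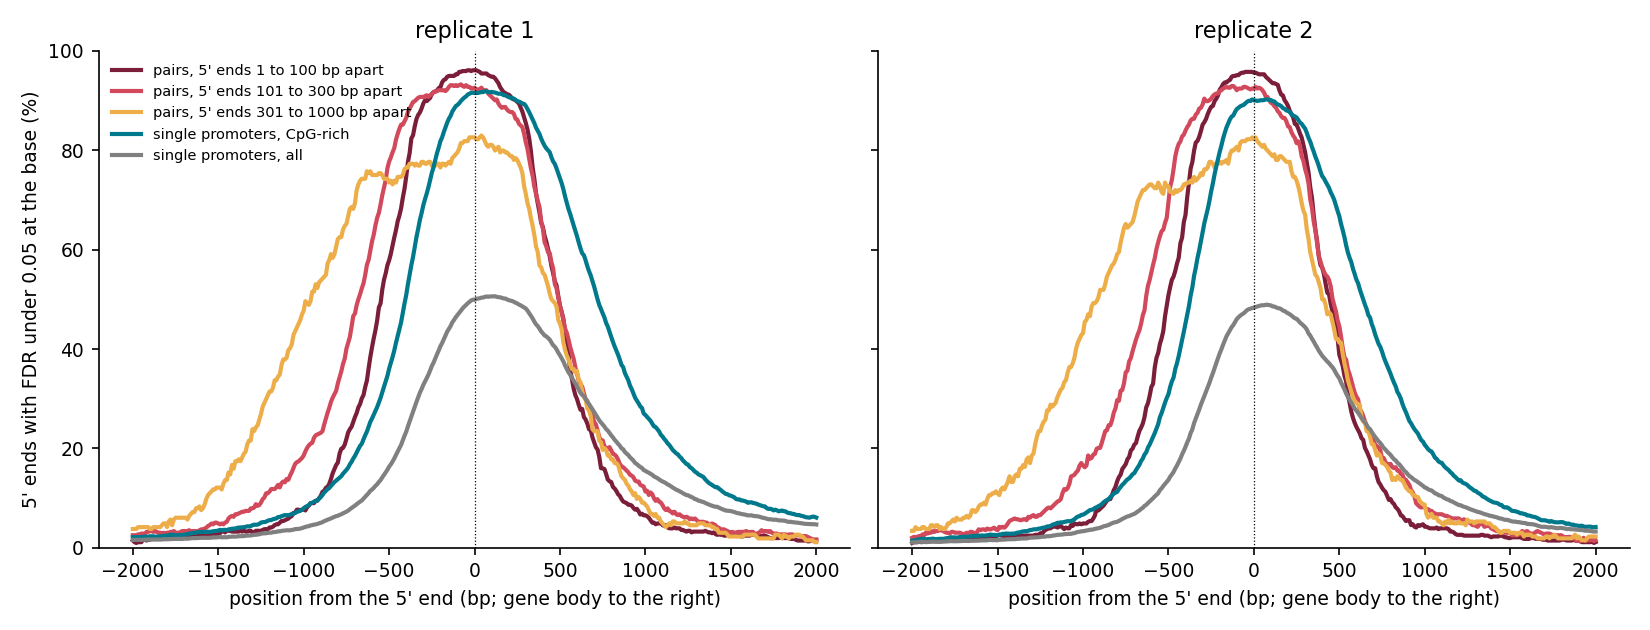
Percent of 5' ends at which a base has an FDR under 0.05, by position from the 5' end with the gene body to the right, in replicate 1 and replicate 2; lines are pairs by distance between the 5' ends, CpG-rich single promoters and all single promoters. Pair lines rise farther to the left, where at 400 bp 86.3% and 50.8% of CpG-rich pair and single ends were open in replicate 1, and drop earlier to the right, where at 600 bp the values were 36.4% and 62.6%.

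A gene with a second start farther in would move open bases downstream, so the profile was repeated on genes whose annotated coding starts all lie within 200 bp, a choice made after the data were seen. At 600 bp downstream, 31.2% of the 701 remaining pair ends and 56.7% of the 3190 single ends were then open in replicate 1, and 25.7% and 47.0% in replicate 2. Single promoters whose upstream side carries a diverging noncoding gene within 1 kb lay between pairs and all CpG-rich single promoters upstream, and close to the single promoters downstream. Of their 464 CpG-rich 5' ends, 69.2% and 64.0% were open at 400 bp upstream in replicates 1 and 2, while 62.1% and 53.2% were open at 600 bp downstream.

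The genes of pairs were unevenly spread over gene classes, which were defined by symbol. Of the replication-dependent histone genes, which package newly made DNA, 27 of 67 (40.3%) were in pairs, most of them an H2A and an H2B gene that share a promoter. Of the class named DNA repair and replication, 40 of 139 genes (28.8%) were in pairs. This class took symbols starting with Pol and a letter, so it also held RNA polymerase subunits (Polr). Of mitochondrial ribosomal proteins 18 of 78 (23.1%) were in pairs, and of oxidative phosphorylation genes 23 of 104 (22.1%). Zinc finger genes stood at 5.02%, below the 6.96% of all genes, and none of the 1128 olfactory receptor genes was in a pair. These shares describe the annotation, not the libraries.

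In the housekeeping classes almost every pair was open, as it was over all pairs, of which 94.4% were open in both libraries, and over CpG-rich pairs, of which 99% were. All 18 pairs with a mitochondrial ribosomal protein, all 23 with an oxidative phosphorylation gene and all 12 with a chaperone had peaks in both libraries. So did all 7 with a proteasome subunit and all 5 with an aminoacyl-tRNA synthetase. Of pairs with a gene of the DNA repair and replication class, which was wider than its name, 40 of 41 did. The other classes had 9 of 10 pairs with a cytosolic ribosomal protein open, 18 of 19 with a zinc finger gene, 22 of 23 with a Tmem gene and 66 of 74 with a predicted gene. Single promoters of the first 6 classes were open in both libraries in 94.7%, 89.3%, 81.2%, 84.4%, 95.2% and 91.9% in that order. Medians of the strongest value for mitochondrial ribosomal protein genes were 2.97 in pairs and 2.18 in single promoters in replicate 1, and 2.72 and 2.13 in replicate 2. Oxidative phosphorylation genes differed less, with 2.79 in pairs and 2.75 in single promoters in replicate 1, and 2.84 and 2.45 in replicate 2. Chaperone genes had 2.95 and 2.93 in replicate 1, and in replicate 2 the pairs were lower, with 2.37 against 3.0.

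Histone pairs were the weak exception. Of 14 histone pairs, 11 were open in both libraries, and their median value was 1.81 in replicate 1 and 1.5 in replicate 2, below the 2.85 and 2.68 of all open pairs. The 6 single histone promoters were all open in both libraries, with medians of 2.76 and 2.8, so here the pairs were lower than the single promoters. Hist1h2ak/Hist1h2bn, printed above with its TATA match, had 0.996 and 1.07. Hist1h2an/Hist1h2bp had 1.96 and 1.35, and Hist2h2ac/Hist2h2be had 2.22 and 2.13. The 3 without a peak were Hist1h2ba/Hist1h2aa, which encode histones of the testis, and Hist1h2bq/Hist1h2ao and Hist1h2ap/Hist1h2br. The last 2 regions each have 2 other copies in the genome at 90% identity or more over at least 80% of their length, and how the authors treated reads that fit several places is not given. Hist1h2bf/Hist1h2ad, which also has 2 other copies, was open at 2.04 and 1.83.

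The strongest pair was Hjurp/Trpm8 on chromosome 1, with a value of 9.36 in replicate 1 and 11.4 in replicate 2. Hjurp encodes the chaperone of the centromeric histone variant and Trpm8 the cold-sensing ion channel of sensory neurons. Its 5' ends lie 28 bp apart, 1 peak covered both in each library, and it held only 5 and 2 footprints. No other copy of the region was found. The next was Cdc27/Myl4, a subunit of the anaphase-promoting complex and a myosin light chain, at 6.87 and 5.56. Tepsin/Ndufaf8, an adaptor-complex accessory protein and an assembly factor of respiratory complex I, had 6.47 and 5.69. Cct5/Fam173b, with a chaperonin subunit, had 6.08 and 5.28. A further 5 of the 10 strongest were Fbh1/Ankrd16, Dus4l/Cog5, Dnajb4/Fubp1, Dtl/Ints7 and Klc4/Mrpl2, whose mean values ran from 5.64 to 5.15. Trpm8 and Myl4, whose products are known from sensory neurons and heart, are thus annotated at the same open promoters as genes of cell division.

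The closest 5' ends among open pairs were those of Bag4/Lsm1 and Slc7a6os/Prmt7, each 1 bp apart. Bag4 encodes a cochaperone of Hsp70 and Lsm1 a factor of mRNA decay. Bag4/Lsm1 had 5.29 in replicate 1 and 3.86 in replicate 2, and Slc7a6os/Prmt7, with an arginine methyltransferase, had 3.38 and 3.35. In Bag4/Lsm1 the peak of replicate 1 covered both ends and that of replicate 2 neither. Dhrs1/Nop9 at 3 bp had 2.18 and 2.38, Bag5/Apopt1 at 4 bp had 2.80 and 2.10, and Wdr54/1700003E16Rik at 7 bp had 1.94 and 1.64. In these 3, 1 peak covered both ends in each library.

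Of a list of textbook and brain genes, 11 pairs were members, and all 11 were open in both libraries, beside 94.4% of all pairs. Those of DNA repair and replication were Brca1/Nbr1 with 4.48 in replicate 1 and 2.44 in replicate 2, Atm/Npat with 3.51 and 3.72, Mcm4/Prkdc with 3.63 and 2.95, and Emc3/Fancd2 with 3.63 and 3.89. Atm encodes the kinase that signals DNA breaks and Npat a coactivator of histone genes. The 2 values of Brca1/Nbr1 are farther apart than those of most pairs, as are the 5.32 and 3.40 of Mrps12/Sars2, which encode a mitochondrial ribosomal protein and the mitochondrial seryl-tRNA synthetase.

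The pairs tied to neurological disease genes were near the middle of the range. Park7/Tnfrsf9, where Park7 encodes DJ-1, had 2.60 in replicate 1 and 2.97 in replicate 2, and its partner is a receptor of T cells. Pdcd10/Serpini1 had 3.49 and 2.84: Serpini1 encodes neuroserpin, a protease inhibitor of neurons, and the ends lie 691 bp apart in separate peaks. Psmb1/Tbp, with a proteasome subunit and the TATA-binding protein, had 3.13 and 2.82, Atp6v1d/Eif2s1 had 3.70 and 3.25, and Gm27021/Cox4i1 had 1.87 and 2.26. In replicate 1, Atp6v1d/Eif2s1 lay above the third quartile and Gm27021/Cox4i1 below the first. Synaptic and transmitter genes on the same list, such as Camk2a, Snap25, Gria2, Grin1 and Gad1, belonged to no pair.

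Neither library had a peak in 39 pairs (5.31%), of which 34 were not CpG-rich. In 35 of them no base reached an FDR under 0.05 in either library. The first 10 in genome order were 4931428L18Rik/Pih1d3, Col4a4/Col4a3, Nmur1/Tex44, Patl2/Terb2, Duox2/Duoxa2, Tssk3/Fam229a, Smyd1/Cd8b1, Il11/Tmem190, Slc27a5/Trim28 and Klc3/Ckm. Among their genes, Col4a3 and Col4a4 encode collagen chains of the kidney filter, Duox2 and Duoxa2 the thyroid oxidase and its maturation factor, Ckm and Smyd1 muscle proteins, Cd8b1 a T cell coreceptor, and Tssk3 and Terb2 proteins of male germ cells. Chosen after their values were seen, others were Pecam1/Milr1 with an endothelial adhesion protein, Bhmt2/Dmgdh with enzymes of liver, and Aspa/Spata22, whose Aspa encodes an enzyme of oligodendrocytes.

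Some pairs without a peak hold a widely used gene whose open promoter lies elsewhere. The 39 pairs comprise 77 genes, of which 31 have an annotated coding start outside the pair region, and 13 of these, in 13 pairs, had a peak in both libraries at such a start. Any outside start of a gene could count. Over the 5' ends of all 20807 protein-coding genes, 57.1% had a peak in both libraries within 500 bp, so the count does not set these genes apart. Trim28, a corepressor, had 5.40 in replicate 1 and 4.47 in replicate 2 at a start 25038 bp from the one that makes it a member with Slc27a5. Ccnt1, the cyclin of an elongation kinase, had 4.40 and 4.47 at 3287 bp. Xrcc1 of DNA repair had 3.45 and 3.31 at 861 bp, and the ribosomal protein gene Rps2 2.79 and 2.80 at 1947 bp. For these pairs the annotated outermost start, not the gene, was without a peak. This look at other starts was added after the values were seen.

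Matches to 10 short motifs were counted on both strands in the reference sequence. Their letters were GCGCATGCG for NRF1, CCGGAAGT for ETS factors, AANATGGCG for YY1, CCAAT for NF-Y, GGGGCGGGG for SP and KLF factors, TTTCCCGC for E2F, TGACGTCA for the CRE bound by CREB, TCTCGCGAG for a Kaiso-type site, ACTACAANT for a ZNF143-type site, and TATAAA for the TATA box. Overlapping matches of 1 motif were joined, and different motifs overlapped in pairs only at 2 sites each of CRE with ETS, NF-Y with TATA and NF-Y with YY1. A match is a run of letters and does not show that the factor binds.

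Per region, ETS, YY1, NRF1, E2F and ZNF143-type matches were more frequent in pairs than in single promoters of like composition. A pair region holds both 5' ends, and whether the matches are also more frequent per 5' end was not tested. An ETS match lay in 19.2% of CpG-rich pairs (16.1 to 22.5%) and 10.6% of CpG-rich single promoters (9.81 to 11.4%). For YY1 the shares were 15.7% and 10.3%, for NRF1 8.28% and 5.18%, for E2F 9.25% and 6.15%, and for the ZNF143-type motif 7.14% and 4.01%, with intervals that did not overlap. Over all regions the same motifs lay in 18.5% (ETS), 14.6% (YY1), 7.49% (NRF1), 9.13% (E2F) and 7.63% (ZNF143-type) of pairs, against 5.95%, 5.21%, 2.60%, 3.37% and 4.11% of single promoters. Intervals of pairs and single promoters overlapped for CRE, at 6.98% and 4.95% of CpG-rich regions, for the Kaiso-type motif, at 3.90% and 2.37%, for NF-Y, at 71.6% and 69.8%, and for SP/KLF, at 38.6% and 43.3%. With single promoters measured 500 bp to each side of the 5' end, NF-Y lay in 62.7% of the CpG-rich ones, below the interval of the pairs (67.9 to 75.1%). That window is shorter than the pair regions. Over all regions these 4 motifs lay in 6.27% (CRE), 3.81% (Kaiso-type), 72.3% (NF-Y) and 36.4% (SP/KLF) of pairs, against 3.16%, 0.995%, 77.0% and 22.9% of single promoters.

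TATA boxes were rarer in pairs over regions of the same lengths, with a match in 16.9% of CpG-rich pairs (14.0 to 20.1%) and 25.3% of CpG-rich single promoters (24.2 to 26.3%), and in 18.5% of all pairs and 42.1% of all single promoters. The gap among CpG-rich regions depended on the window. Measured 500 bp to each side of the 5' end, 17.6% of CpG-rich single promoters held a match. This was inside the interval of the pairs, whose regions were longer than that window. Per kb, CpG-rich pairs had 0.194 matches between the ends and 0.151 elsewhere. CpG-rich single promoters had 0.273 and 0.267 over stretches of the same lengths upstream and elsewhere. Close to the start, the match began 20 to 40 bp upstream of 3 of the 1468 ends of pairs (0.204%, 0.0422 to 0.596%). Single promoters had it there in 2.81% of all and in 0.943% of CpG-rich 5' ends. This window was chosen after the data were seen.

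CCAAT boxes gathered between the 5' ends although the share of regions with one was alike. In CpG-rich pairs there were 4.51 matches per kb between the ends and 0.943 elsewhere in the region, against 2.13 and 1.03 per kb in CpG-rich single promoters over stretches of the same lengths upstream and elsewhere. In the Tepsin/Ndufaf8 sequence above all 3 lie there. The stretch between the ends is upstream of 2 genes, while that of a single promoter is upstream of 1. Whether the density of any motif is higher in pairs per gene was not tested. SP/KLF matches also gathered, at 1.49 between and 0.282 elsewhere in pairs, and at 1.41 and 0.384 in single promoters. YY1 matches were placed the other way, with 0.111 between and 0.159 elsewhere in CpG-rich pairs, and 0.067 and 0.0984 per kb in single promoters.

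Footprints marked NRF1 and CRE matches far more often than the others. Of the 62 NRF1 sites in pairs, 80.6% lay in a footprint in replicate 1 and 75.8% in replicate 2, and of the 48 CRE sites 75.0% and 72.9%. For SP/KLF the shares were 39.6% and 38.1% of 381 sites, for ETS 24.4% and 26.3% of 156, and for YY1 18.3% and 26.7% of 120. Of the 1288 CCAAT boxes 8.85% and 7.61% did, and of the 159 TATA matches 3.77% and 3.14%. The Kaiso-type motif had 7 and 12 of its 30 sites in footprints, the ZNF143-type motif 9 and 5 of its 61, and E2F 7 and 6 of its 72. Open pair regions held 7.12 footprints per kb in replicate 1 and 5.7 in replicate 2. The median footprint width over each whole library was 8 and 9 bp. The share of all bases of the pair regions in footprints was not computed, so the low shares cannot be told apart from it.

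In CpG-rich single promoters NRF1 and CRE matches also had the highest shares, and those of some motifs were lower than in CpG-rich pairs. An SP/KLF match lay in a footprint in 41.0% ± 0.211 of CpG-rich pair sites and 28.9% ± 0.018 of CpG-rich single sites (mean ± SD, n = 2 libraries). For CRE these were 75.6% ± 3.14 and 60.1% ± 6.04, for ETS 27.0% ± 2.06 and 21.4% ± 0.924, and for NRF1 77.6% ± 4.88 and 71.8% ± 1.8. YY1 sites had 23.6% ± 5.14 and 24.9% ± 3.80, a difference below the spread between libraries. Peak values and footprint counts of pairs were also higher, by 1.22-fold and 1.20-fold over CpG-rich regions, and their part in these shares was not tested.

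**Figure D5:**
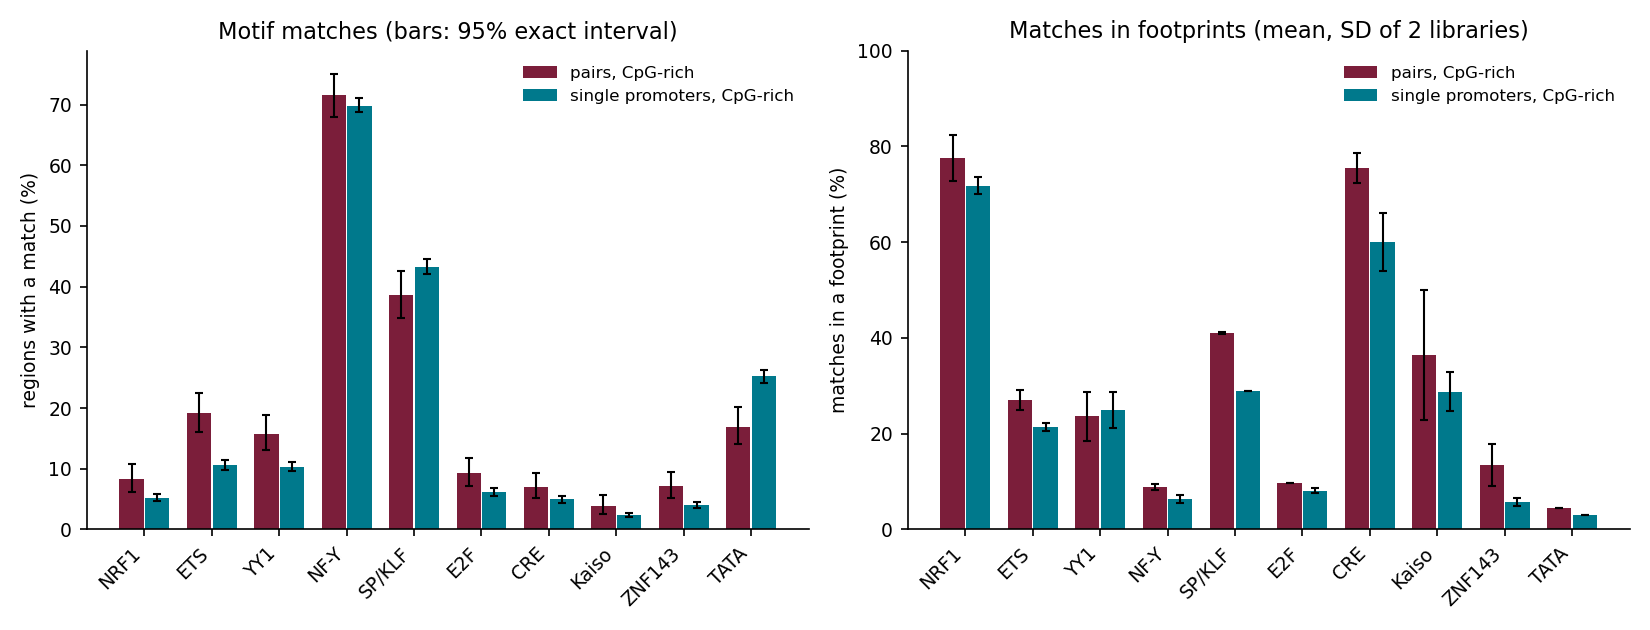
Left: percent of CpG-rich regions with at least 1 match, pairs (dark red) and single promoters (teal), with exact 95% intervals. Right: percent of matches whose middle base lies in a footprint, mean and SD of the 2 libraries; NRF1 and CRE stand highest in pairs, at 77.6% and 75.6%, and TATA lowest, at 4.39%.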

How the data were processed

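For each of 2 DNase-seq libraries of 1 group, the authors deposited narrow peaks with a signal value, a shorter peak list, footprints, and intervals with their FDR (p-value type), all under 0.05. Per the file headers and labels the build is mm10, and each list comes from its own library. The aligner, callers, filters and signal scaling were not given in the sources used here, which leaves the depth unknown. Gene annotation was GENCODE release M21. Sequence was read from the GRCm38.p6 assembly, which is mm10. A region was open when a peak overlapped it by at least 1 bp, and its value was that of the strongest such peak. Each single promoter took the length of a pair region, assigned in genome order.

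Named pairs are the 10 strongest, up to 5 per library open there only, the first 10 without a peak, the 5 with the closest ends, and members of a list of textbook and brain genes. A few of these pairs are not reported here. Members, lists, motifs and classes were chosen with earlier results of these data known. Shares carry exact (Clopper-Pearson) 95% intervals. Alternatives covered the peak list, overlap, distance, annotation, single promoters, CpG content and each library left out. Code was tested on simulated data. Python 3.11.15, pandas 2.3.3, scipy 1.17.1, pysam 0.24.0, matplotlib 3.10.9 and blastn 2.17.0 were used.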

Additional observations from a re-analysis of the deposited data

How the results depend on the processing

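The pairs stood above single promoters under every alternative run for the share open in both libraries and for the peak value. With the shorter peak list, 92.4% of pairs and 47.2% of single promoters were open in both, and the ratio of median peak values was 1.29. Over CpG-rich regions the values were 99%, 93.7% and 1.22. With established symbols alone they were 95% of pairs and 56.1% of single promoters. With distances of at most 500 bp, 95.2% of pairs were open and 66.6% of open pairs had 1 peak over both ends, against 61.4% at up to 1000 bp. Without single promoters next to a diverging noncoding gene, 51.7% of the rest were open. With 1 pair per locus, chosen after the data were seen, 94.4% of pairs were open. Leaving out a library gave 94.6% to 94.6% of pairs, 54.4% to 55.6% of single promoters, 59.2% to 63.5% with 1 peak over both ends, and ratios of 1.37 to 1.40, since 1 library then decides what is open. Of all motif sites in pairs, 18.2% lay in footprints, and 15.9% when footprints outside peaks were dropped. With single promoters measured 500 bp to each side, 8 of the 10 motifs were more frequent in CpG-rich pairs, the same count as over matched lengths. That window lies inside the matched one and could only lower the shares of single promoters, so the count could not fall. The 8 include CRE, Kaiso-type and NF-Y, whose intervals overlapped over matched lengths. No paired analysis was possible because the study has 1 group. The causes were not tested. With 2 libraries of unknown depth, a region without a peak means that no peak was detectable, not that it is closed.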
